A study of Mus musculus with 217 samples.

Results

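Frzb and Sfrp5 encode secreted antagonists of WNT signalling, and their levels were followed across single cells of the tibial growth plate of mice at postnatal day 7. All cells came from wild-type C57/BL animals, and each was profiled by full-length polyA RNA sequencing. These 2 of the 9739 genes with values were selected on earlier results from the same cells, by detection, level and direction over Col10a1, the collagen of hypertrophic cartilage, and Ucma, a matrix protein of immature chondrocytes. Levels of Frzb and Sfrp5 over Col10a1 and Ucma are therefore a description and carry no test. The 217 deposited columns were reduced to profiles by averaging 52 columns within 23 sets of near-identical columns and leaving out 1 mixed column. The description rests on the profiles with a value of at least 5 for Acan, the cartilage proteoglycan aggrecan, called chondrocyte profiles here. They are all but 11 of the profiles, and they divide into 39, 68 and 69 by Col10a1 as described with the results. No animal, litter or plate is named in the labels, so the cells form 1 sample, and no p-value was computed. The number of animals pooled is likewise not given in the sources used here.

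WNT ligands are secreted proteins that bind Frizzled receptors and LRP co-receptors, and in the canonical branch this binding stabilises beta-catenin, which acts with TCF and LEF factors on target genes. Secreted frizzled-related proteins carry a cysteine-rich domain like that of the receptors and can hold WNT ligands away from them. In the growth plate, chondrocytes leave a resting zone, divide in columns and become prehypertrophic cells, which make Indian hedgehog, and hypertrophic cells, which make type X collagen. WNT signalling takes part in that maturation and in bone formation, and Frzb was first known as a cartilage-derived protein.

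Frzb (ENSMUSG00000027004.3) lies on the minus strand at chr2:80411970-80447625 of GRCm38, the assembly also called mm10, and spans 35656 bases with 6 exons in its coding transcript. Sfrp5 (ENSMUSG00000018822.7) is on the minus strand at chr19:42197971-42202252 and spans 4282 bases with 3 exons. No other annotated gene overlaps either of them in GENCODE M21, so their values are not shared with an antisense partner there. The coding length is 969 bases for Frzb and 942 bases for Sfrp5.

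The promoter windows of both genes in RefSeq (GRCm38.p6), from 250 bases before to 50 bases after the start of the gene, were searched on both strands for 4 motifs. These were CTTTGA for TCF/LEF factors, the nuclear effectors of WNT; TGTGGT for RUNX factors, which act in hypertrophic chondrocytes and osteoblasts; AACAAT for SOX factors; and TGANTCA for AP-1. Frzb held 1 match, to the TCF/LEF letters, and Sfrp5 held 1 match, to the RUNX letters. The 2 sites are shown because they are all that the search found, with the matched letters in capitals and 11 bases on each side, read 5′ to 3′ on the minus strand.
Frzb: cccctgaaaacTCAAAGccttctcggaa
Sfrp5: aggagagagacTGTGGTggagagagata
The Frzb site (chr2:80447475-80447502) holds TCAAAG, the reverse complement of CTTTGA, and these letters begin at offset -95 from the RefSeq start, where negative offsets are upstream. By GENCODE M21, whose transcript begins further upstream, the site lies in the first exon, in the 5′ untranslated part. The Sfrp5 site (chr19:42202428-42202455) has its TGTGGT beginning at offset -192, outside the annotated gene. Such short words are common: the TCF/LEF letters occur in 16% of 32851 promoter windows of the same length, the RUNX letters in 16.8%, the SOX letters in 10.7% and the AP-1 letters in 7.81%. Both windows are richer in G and C than the median window, at 64.7% for Frzb and 61.3% for Sfrp5 against 52.7%. A match describes letters, not binding, and an absent match says only that the letters are not in this window.

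The deposited values run from 0 to 15.14 on a log2 scale, and 62.3% of them are exactly 0, and a 0 may stand for a transcript that was missed or for one that was absent. Back-transformed totals per column lie between 394406 and 616257, so the values had been scaled for depth, and the number of reads per cell is unknown. A gene is called detected where its back-transformed value is at least 1, which is also 1 on the log2 scale with the pseudocount of 1. By this measure a chondrocyte profile held between 1326 and 4994 genes, with a median of 3463.5. Whether a level is per transcript length is not given in the sources used here, so levels of Frzb are not set against levels of Sfrp5. The tissue label was checked on 20 of 21 listed chondrocyte markers that have values. Acan is 1 of these markers and also chose the profiles, so its detection was fixed beforehand. The check leaves out the profiles with Acan below 5. The median marker was detected in 99.4% of the chondrocyte profiles. Sox9 was detected in all of them, but some markers of the list were low: Col2a1, the main cartilage collagen, was detected in 21% and reached 3.14 at most, Sox5 was detected in 10.8% and Sox6 in 1.14%. These do not match the label, and the part of the deposited quantification in them was not tested. The Acan threshold falls in a wide gap, with the lowest values inside it at 6.67, 6.79 and 7.02 and the highest outside at 2.91 and 0.01. In those 5 profiles on either side of it, Frzb was at 0 in all but 1, which had 0.98, and Sfrp5 was at 0 in every one.

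Frzb was detected in 93 chondrocyte profiles and not in the other 83 (52.8%, exact Clopper-Pearson 95% interval 45.2 to 60.4%). This interval and those that follow cover the counting of profiles only and hold no spread between animals. The level of Frzb was 0 in 78 profiles, 1.91 at the median and 8.93 at the highest (mean 2.85 ± 3.07, SD over profiles). Where Frzb was detected its level ran from 1.43 to 8.93, with a lower quartile of 3.78 and a median of 5.56. Sfrp5 was detected in fewer profiles, 66 (37.5%, interval 30.3 to 45.1%). Its level was 0 in 60.2% of profiles, 0 at the median and 8.74 at the highest (mean 1.77 ± 2.51, SD). Where Sfrp5 was detected its level ran from 1.12 to 8.74, with a median of 4.68. A stricter rule, a back-transformed value of at least 10, gives 40.9% for Frzb and 27.3% for Sfrp5.

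Near-identical columns give the only measure of technical spread. Frzb was detected in every column of 8 of the 23 sets, in no column of 14 and in some but not all columns of 1. Sfrp5 gave the same counts of 8, 14 and 1. Over the sets with the gene detected in at least 1 column, the SD between such columns was 0.23 for Frzb and 0.44 for Sfrp5. Between all chondrocyte profiles, those at 0 included, it was 3.07 and 2.51. Among sets with the gene detected throughout, the range within a set was 0.06 to 0.65 for Frzb and 0.08 to 1.14 for Sfrp5. These columns may be repeat libraries of 1 cell, so they say nothing about spread between cells or animals.

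Outside the chondrocyte profiles Frzb was detected and Sfrp5 was not. Of the 11 profiles with Acan below 5, 3 had Frzb detected, at 3.41, 6.59 and 7.03 (27.3%, interval 6.02 to 61%). These 3 profiles had Col1a1, the main collagen of bone, at 12.49, 13.21 and 13.02 in the same order, and Ibsp, bone sialoprotein, at 12.74, 14.92 and 12.96. Acan was at 0 in all 3 of them. These bone genes did not set the 3 apart: 4 other profiles of the 11, with Frzb at 0, had Col1a1 at 11.50 to 13.28 and Ibsp at 12.88 to 14.73. Sfrp5 was detected in 0 of the 11 profiles, which by the limit of 3 counts of 11 allows a share of up to 27.3%, so a share like that of Frzb was not excluded by the number of cells.

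Frzb was more often detected where Col10a1 was high. Profiles were divided into 39 with Col10a1 not detected, 68 with it detected below its median detected value of 8.91 (Col10a1-low) and 69 at or above that value (Col10a1-high). Frzb was detected in 13 of 39 (33.3%, interval 19.1 to 50.2%), 33 of 68 (48.5%, 36.2 to 61%) and 47 of 69 (68.1%, 55.8 to 78.8%) of these profiles. The median level of Frzb was 0, 0.30 and 5.02, and the highest was 7.77, 7.70 and 8.93. The mean level was 1.85 ± 2.85, 2.16 ± 2.55 and 4.09 ± 3.28 (SD, n = 39, 68 and 69). All 3 classes overlap from 0 up to 7.70. Among profiles with Frzb detected, its median level was 6.01, 4.19 and 6.48. The class without Col10a1 and the Col10a1-high class thus had similar levels where Frzb was detected, while from Col10a1-low to Col10a1-high both the share and the detected level were higher.

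Sfrp5 had the opposite order. It was detected in 19 of 39 profiles without Col10a1 (48.7%, interval 32.4 to 65.2%), 30 of 68 Col10a1-low profiles (44.1%, 32.1 to 56.7%) and 17 of 69 Col10a1-high profiles (24.6%, 15.1 to 36.5%). The median level of Sfrp5 was 0.82, 0 and 0, and the highest was 8.74, 8.23 and 6.16. The mean level was 2.52 ± 2.92, 2.17 ± 2.68 and 0.96 ± 1.81 (SD). The first 2 classes had similar shares, and the last was the lowest. Among profiles with Sfrp5 detected, its median level also stepped down, from 5.59 through 4.6 to 3.62.

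**Figure D1:**
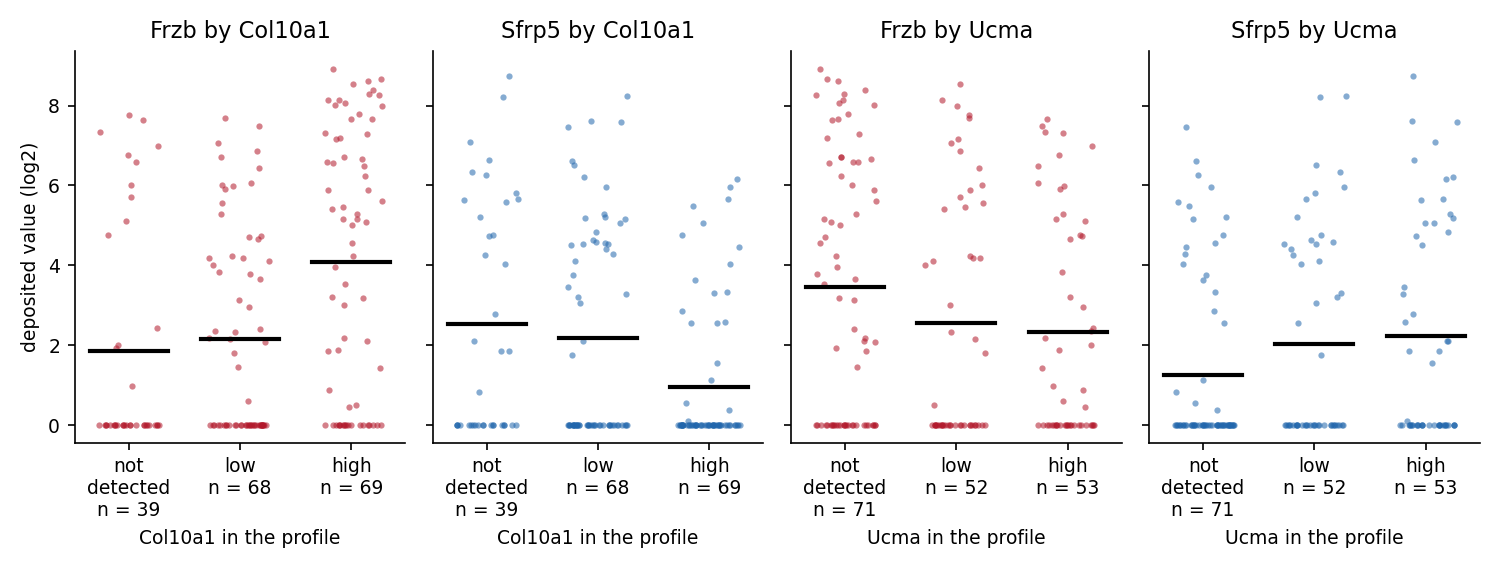
Deposited log2 value of Frzb (red) and Sfrp5 (blue) in each chondrocyte profile, by Col10a1 and by Ucma not detected, low (detected below the median of its detected values) or high; each point is 1 profile and each bar is the mean. Mean Frzb is 4.09 in the Col10a1-high class against 1.85 without Col10a1, mean Sfrp5 is 0.96 against 2.52, and every class holds profiles at 0.

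With Col10a1 detected against not detected, mean Frzb was 3.13 (n = 68 and 69 in the low and high classes) against 1.85 (n = 39), a difference of 1.28 on the log2 scale. Of 5379 genes detected in at least 20% of profiles, 263 had a larger difference, and the median over these genes was 0.25. Sfrp5 was 1.56 against 2.52, a difference of -0.96, and 90 genes had a lower one. Since direction over Col10a1 served to choose both genes, the background is given without a reading: 9.89% of the 5379 genes were higher by at least 1 and 1.49% were lower by at least 1. Frzb is among the former, while Sfrp5 falls just short of the latter. Between Col10a1-high profiles and those without Col10a1, the difference was 2.25 for Frzb and -1.57 for Sfrp5. The median over all genes in that comparison was 0.31.

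Depth-related measures moved with Col10a1 as well. The median number of genes detected was 3025 without Col10a1, 3452.5 in Col10a1-low and 3595 in Col10a1-high profiles. With that number regressed out of every gene, the difference over Col10a1 came to 0.615 for Frzb and -0.85 for Sfrp5, with a median over all genes of -0.02. The differences over Ucma, described below, came to -1.06 for Frzb and 0.88 for Sfrp5. Across the chondrocyte profiles the Spearman rho with the number of genes detected was 0.28 for Frzb and -0.03 for Sfrp5, given as a description since the profiles share their processing. Immediate-early genes, which cells switch on within minutes of handling or stimulation, had values for 13 of 14 list members. Their summed log2 values had a median of 41.1 (13.5 to 65.9) without Col10a1, 46.1 (18.8 to 71.4) in Col10a1-low and 54.9 (20.4 to 87.8) in Col10a1-high profiles. The sum was 54.3 (20.4 to 87.8) with Frzb detected against 42.2 (13.5 to 84) without it, and 46.3 (20.4 to 76.7) with Sfrp5 detected against 48.7 (13.5 to 87.8) without. Their part in the Frzb result was not tested.

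Over Ucma the directions were exchanged. Ucma was not detected in 71 profiles, detected below its median of 3.63 in 52 and at or above it in 53. Frzb was detected in 44 of 71 (62%, interval 49.7 to 73.2%), 24 of 52 (46.2%, 32.2 to 60.5%) and 25 of 53 (47.2%, 33.3 to 61.4%) of these profiles. Its median level was 3.17, 0 and 0.87, and its mean 3.46 ± 3.25, 2.54 ± 3.06 and 2.32 ± 2.74 (SD). Sfrp5 was detected in 19 of 71 (26.8%, interval 16.9 to 38.6%), 22 of 52 (42.3%, 28.7 to 56.8%) and 25 of 53 (47.2%, 33.3 to 61.4%). Its median level was 0 in all 3 classes, and its mean 1.25 ± 2.18, 2.03 ± 2.62 and 2.22 ± 2.75 (SD). The values of either gene overlap across the Ucma classes, each of which holds profiles at 0.

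Mean Frzb was 2.43 with Ucma detected (n = 52 and 53) against 3.46 without it (n = 71), a difference of -1.03 that was lower for 39 of the 5379 genes. Mean Sfrp5 was 2.13 against 1.25, a difference of 0.88 that was above those of 97.6% of genes, and the median over all these genes was 0.03. As above nothing is read from the background, in which 0.781% of genes were lower by at least 1 and 1.13% higher by at least 1. Both directions were read in the same profiles, in which Col10a1 and Ucma themselves ran in opposite directions (rho -0.30). Within the profiles that had Col10a1 detected, the difference over Ucma was -0.86 for Frzb and 0.85 for Sfrp5.

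**Figure D2:**
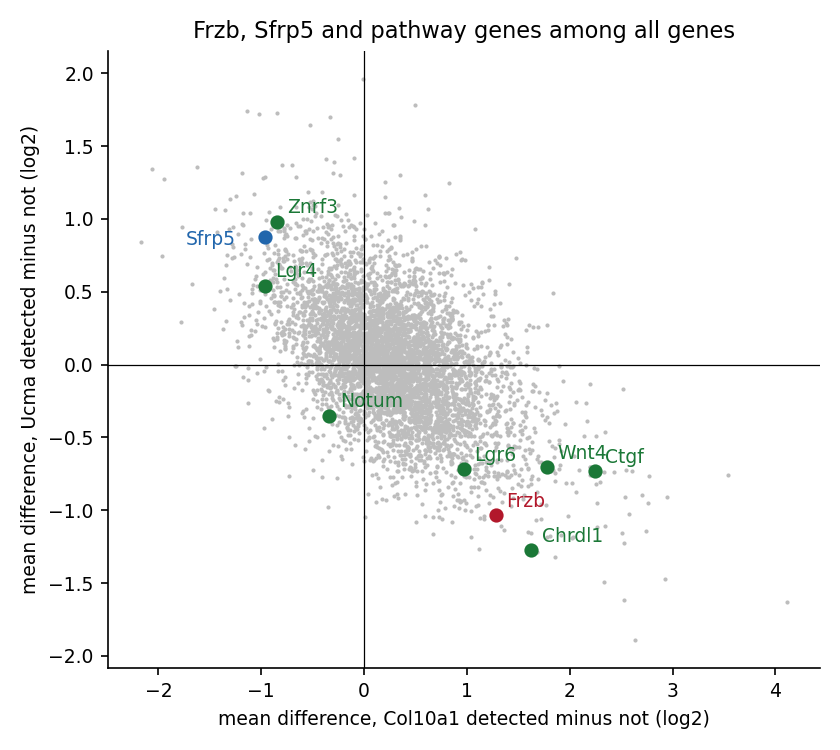
Difference in mean log2 value between profiles with and without Col10a1 (x axis) and with and without Ucma (y axis). Each point is 1 gene detected in at least 20% of profiles, Col10a1 and Ucma left out, with Frzb in red, Sfrp5 in blue and WNT or BMP pathway genes in green. Frzb lies at 1.28 and -1.03 and Sfrp5 at -0.96 and 0.88, in opposite corners of a cloud that itself slopes downward.

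Taking both reference genes at once, Frzb was detected in 10 of 32 profiles with Ucma alone (31.3%) and in 41 of 64 with Col10a1 alone (64.1%). In the 73 profiles with both, Frzb lay between these, in 39 (53.4%). Sfrp5 was detected in 16 of 32 profiles with Ucma alone (50%), 31 of 73 with both (42.5%) and 16 of 64 with Col10a1 alone (25%). The 7 profiles with neither held Frzb in 3 and Sfrp5 in 3. Within the profiles that had Ucma detected, the difference over Col10a1 was 0.98 for Frzb and -0.56 for Sfrp5, both smaller in size than over all chondrocyte profiles. Counting every profile without the Acan threshold, the difference of Sfrp5 over Col10a1 was -0.51.

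A finer order used Ihh, which encodes Indian hedgehog, and Ibsp, a late hypertrophic and bone gene, on top of Col10a1. Frzb was detected in 33.3% of the 39 profiles without Col10a1 and in 36 of 69 with Col10a1 but neither Ihh nor Ibsp (52.2%, interval 39.8 to 64.4%). It was detected in 20 of 34 with Col10a1 and Ihh but no Ibsp (58.8%, 40.7 to 75.4%) and in 24 of 34 with Col10a1 and Ibsp (70.6%, 52.5 to 84.9%). The median level of Frzb over these 4 classes was 0, 1.44, 2.25 and 5.31. Sfrp5 went from 48.7% through 27 of 69 (39.1%, interval 27.6 to 51.6%) and 11 of 34 (32.4%, 17.4 to 50.5%) to 9 of 34 (26.5%, 12.9 to 44.4%). Its highest level was 8.74, 8.23, 6.16 and 5.97 in turn. Neither gene's steps between neighbouring classes were tested. The 3 classes with Col10a1 also differed in the level of Col10a1 itself, with medians of 7.67, 8.35 and 10.9. Genes detected rose alongside, at 3347, 3610 and 3682 at the median. The steps therefore cannot be told apart from the order over Col10a1 given above.

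**Figure D3:**
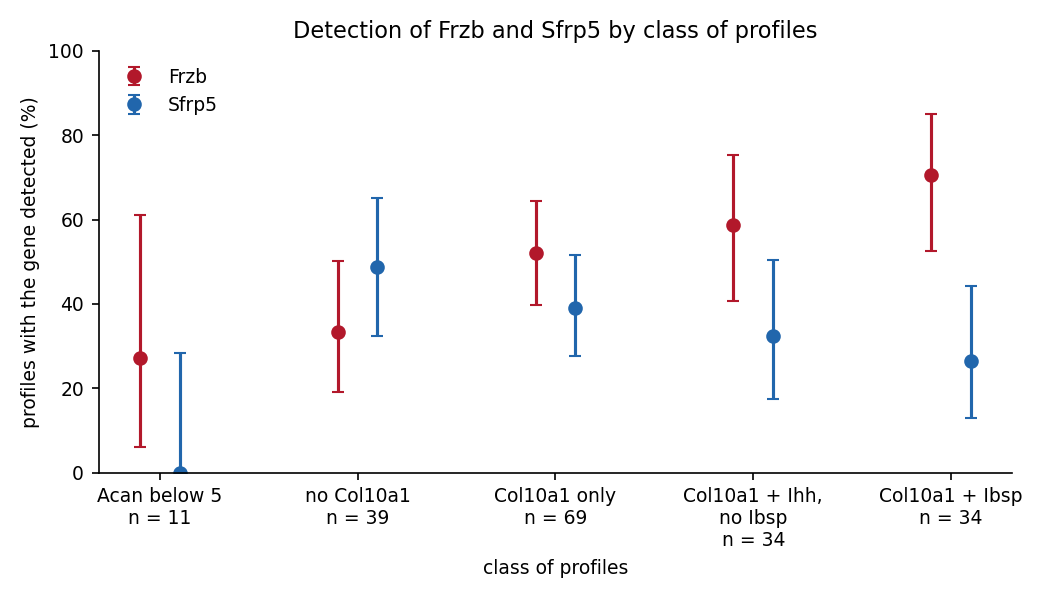
Percentage of profiles with Frzb (red) and with Sfrp5 (blue) detected, first in the 11 profiles with Acan below 5. The 4 classes of chondrocyte profiles set by Col10a1, Ihh and Ibsp follow. Bars on the points are exact 95% intervals over profiles. Over these 4 classes Frzb goes from 33.3% to 70.6% and Sfrp5 from 48.7% to 26.5%, and the intervals of neighbours among the 4 overlap.

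Genes of other cell types were followed alongside. The osteoblast list, which shares Ibsp, Sp7 and other genes with hypertrophic chondrocytes, had values for 13 of 15 members. Its summed log2 values had a median of 27 (13.2 to 45.7) without Col10a1, with 2 members at 0 throughout, 30.6 (13.7 to 104.1) in Col10a1-low and 38.1 (17.5 to 70.7) in Col10a1-high profiles. The sum was 34.1 (17 to 104.1) with Frzb detected and 30.3 (13.2 to 54.1) without it. It was 28.5 (13.2 to 88.8) with Sfrp5 detected and 34.7 (18.2 to 104.1) without. Only 2 chondrocyte profiles had Col1a1 at 8 or above, of which 2 had Frzb and 1 had Sfrp5, and leaving them out moved no difference of either gene beyond the spread between repeat columns. The articular cartilage list had values for 4 of 11 members, with a median sum of 0 whether Frzb was detected or not.

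The 2 antagonists were not arranged in exclusive cells. Both were detected in 38 chondrocyte profiles (21.6%, interval 15.8 to 28.4%), Frzb alone in 55 (31.3%, 24.5 to 38.7%), Sfrp5 alone in 28 (15.9%, 10.8 to 22.2%) and neither in 55 (31.3%). If detection of one said nothing of the other, 34.9 profiles would hold both. Sfrp5 was detected in 40.9% of the 93 profiles with Frzb (interval 30.8 to 51.5%) and in 33.7% of the 83 without (23.7 to 44.9%). The Spearman rho between their levels was 0.01 over all chondrocyte profiles and 0.10 given Col10a1. It was 0.20 in the 39 profiles without Col10a1 and 0.03 in both of the other Col10a1 classes. Within the 38 profiles with both it was -0.26, a weak value over few profiles.

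Along Col10a1 the shares of profiles with a single antagonist ran in opposite directions. Frzb alone was found in 3 of the 39 profiles without Col10a1 (7.69%, interval 1.62 to 20.9%), 17 of 68 Col10a1-low profiles (25%) and 35 of 69 Col10a1-high profiles (50.7%, 38.4 to 63%). Sfrp5 alone went from 9 (23.1%) through 14 (20.6%) to 5 (7.25%, 2.39 to 16.1%). Both were found in 10, 16 and 12 profiles. Neither was found in 17 (43.6%), 21 (30.9%) and 17 (24.6%). Read the other way, Col10a1 was detected in 94.5% of profiles with Frzb alone, and its median over all of those profiles was 9.98. In profiles with Sfrp5 alone Col10a1 was detected in 67.9%, close to the shares with neither antagonist (69.1%) and with both (73.7%). Its median over all profiles was 5.77, 6.47 and 7.21 in that order. Where Col10a1 was detected, its median was 7.19, 8.4 and 8.43 in the same order, and 10.17 with Frzb alone. Ucma was detected in 43.6% of profiles with Frzb alone and 78.6% of those with Sfrp5 alone, against 61.8% with neither and 65.8% with both. Profiles with neither antagonist held the fewest genes, 3162 at the median, against 3618 with Frzb alone, 3475 with Sfrp5 alone and 3444.5 with both. The part of low sensitivity in that class was not tested.

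**Figure D4:**
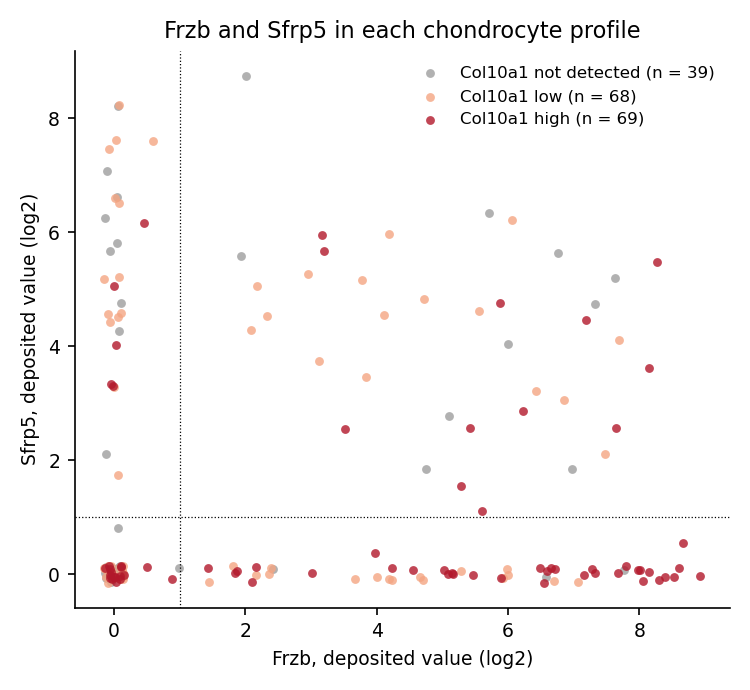
Deposited log2 value of Sfrp5 (y axis) against Frzb (x axis) in each chondrocyte profile, coloured by Col10a1 class, with dotted lines at the detection value of 1; values of exactly 0 are spread by a small random shift so that points do not hide each other. Of the 69 Col10a1-high profiles, 35 lie in the area with Frzb alone and 5 in that with Sfrp5 alone.

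The genes whose levels ran most like Frzb were ranked by Spearman rho over the chondrocyte profiles, among the 5379 genes detected in at least 20% of them. Among the 10 highest were Ptgis (0.44), Cpe (0.43), Hebp2 (0.42), Lgmn (0.42), Serinc5 (0.42), Itga1 (0.39), Scin (0.39), Lmcd1 (0.37) and Ntan1 (0.36). Ptgis, which encodes prostacyclin synthase and is on the hypertrophic list, had a mean of 4.03 with Frzb detected and 1.44 without. Lmcd1, a LIM-domain regulator, was at 6.34 against 3.47, and it had a difference over Col10a1 of 4.12. Cpe, carboxypeptidase E, was detected in every profile, at 11.4 against 10.5. Itga1, the collagen-binding integrin chain alpha 1, followed Frzb with a difference over Col10a1 of only 0.40. The 5 lowest were Ncl (-0.38), Ptges3 (-0.37), Hmga2 (-0.34), Csnk2a2 (-0.33) and 2900097C17Rik (-0.33). Hmga2, a chromatin protein of growing cells, had a mean of 3.55 with Frzb detected and 5.61 without. Given the number of genes detected, the rho of Ptgis was 0.40 and that of Lmcd1 0.30. With Col10a1, Ptgis (0.52), Cpe (0.50), Lgmn (0.50), Serinc5 (0.47), Lmcd1 (0.51) and Ntan1 (0.37) had a higher rho than with Frzb. Hebp2 (0.36), Scin (0.26) and Itga1 (0.21) had a lower one. A place among the highest is therefore not particular to Frzb for most of the genes named.

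With Sfrp5 fewer genes reached a rho of 0.3 in size, as counted below. The 10 highest were Nras (0.36), Acta2 (0.35), Pla2g7 (0.33), Rps25 (0.33), Sox9 (0.32), Hnrnpu (0.31), Ndufa4l2 (0.31), Arglu1 (0.30), Eif1 (0.29) and Srxn1 (0.28). Sox9, the master transcription factor of chondrocytes, had a mean of 9.30 with Sfrp5 detected and 8.25 without. Its rho with Frzb was -0.19. Acta2, smooth muscle actin, was detected in 24.4% of profiles, at a mean of 2.97 with Sfrp5 and 0.87 without. The 5 lowest were Sparc (-0.38), Ccdc80 (-0.31), Cd200 (-0.29), Ppib (-0.28) and Clock (-0.27). Several of these genes ran more closely with Col10a1, where the rho was larger in size than with Sfrp5. These were Sox9 (-0.48), Rps25 (-0.42), Hnrnpu (-0.35), Arglu1 (-0.53), Eif1 (-0.35), Srxn1 (-0.43), Sparc (0.39), Ccdc80 (0.59) and Cd200 (0.53). It was smaller in size for Nras (-0.29), Acta2 (-0.26), Pla2g7 (-0.21), Ndufa4l2 (-0.23), Ppib (0.23) and Clock (0.04). Sparc, the matrix glycoprotein osteonectin, was at 12.1 against 12.6. Cd200, a surface protein that is on the resting-zone list together with Sfrp5, was lower where Sfrp5 was detected, at 1.82 against 3.82. A rho of at least 0.3 in size was reached by 46 genes with Frzb, 38 of them positive, and by 9 with Sfrp5, 7 of them positive. The median rho over all these genes was 0.04 with Frzb and -0.005 with Sfrp5. With the number of genes detected it was 0.28 for Frzb and -0.03 for Sfrp5. Sfrp5 was also at 0 in more profiles, 60.2% against 44.3%. The part of either in the 2 counts was not tested. Sfrp5 itself ranked 3436 among the genes most like Frzb.

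Of 14 listed secreted WNT antagonists outside the frizzled-related family, 4 had values. Among these and the other frizzled-related genes only Notum, at 33%, was detected in more than 20% of chondrocyte profiles. Of the remaining frizzled-related proteins Sfrp1 was detected in 15.9%, Sfrp2 in 14.2% and Sfrp4 in 14.2% of chondrocyte profiles. Sfrp4 went from 5.13% without Col10a1 through 10.3% to 23.2% in Col10a1-high profiles, the order that Frzb had, with a mean difference of 0.71. Sfrp1, at 20.5%, 13.2% and 15.9%, and Sfrp2, at 15.4%, 16.2% and 11.6%, had no such order. Wif1, a WNT-binding protein of another family, was detected in 12.8%, 10.3% and 26.1% of the classes. Notum, an enzyme that inactivates WNT by removing its lipid, was detected in 38.5%, 36.8% and 26.1%, and its difference was -0.34 over Col10a1 and -0.35 over Ucma. Igfbp4 and Dkkl1 were each detected in 5.68% of profiles.

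Of 21 listed ligand genes, counting a secretion carrier, 5 had values, so most of the family was not compared. Among those 5, Wnt4 had the highest detection, in 66.5% of profiles. It went from 38.5% without Col10a1 to 73.5% in Col10a1-low and 75.4% in Col10a1-high profiles, with a mean difference of 1.78 over Col10a1 and -0.70 over Ucma. The share of Wnt4 thus differed between the first 2 classes and hardly between the last 2, where that of Frzb differed by 48.5% against 68.1%. Wnt4 was higher by 0.99 where Frzb was detected and lower where Sfrp5 was, at -0.36. Wnt10b was detected in 5.13%, 26.5% and 24.6% of the classes. Wls, the carrier needed for WNT secretion, was detected in 28.2%, 33.8% and 43.5%.

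Of 30 listed receptors and receptor regulators, 17 had values. Fzd1, Fzd3, Fzd7, Fzd8 and Fzd9, the receptors proper among them, were each detected in 5.11 to 9.09% of profiles. Lrp6, the co-receptor, was detected in 42.6% and Gpc4, a glypican, in 45.5%. Gpc4 had a difference of 0.77 over Col10a1 and of -0.92 over Sfrp5 detection. Lgr4, a receptor for R-spondins, was detected in 92.3%, 92.6% and 78.3% of the Col10a1 classes, with a difference of -0.96 over Col10a1. Its mean was higher by 0.98 where Sfrp5 was detected. Its relative Lgr6 ran the other way, at 5.13%, 22.1% and 30.4%, with a difference of 0.97. Znrf3, a ligase that removes Frizzled receptors and is itself a WNT target, had a difference of -0.85 over Col10a1 and 0.98 over Ucma. Ror2 (17.6%), Kremen1 (11.4%) and Rspo3 (21%) had differences over Col10a1 of 0.17, 0.13 and 0.17.

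**Figure D5:**
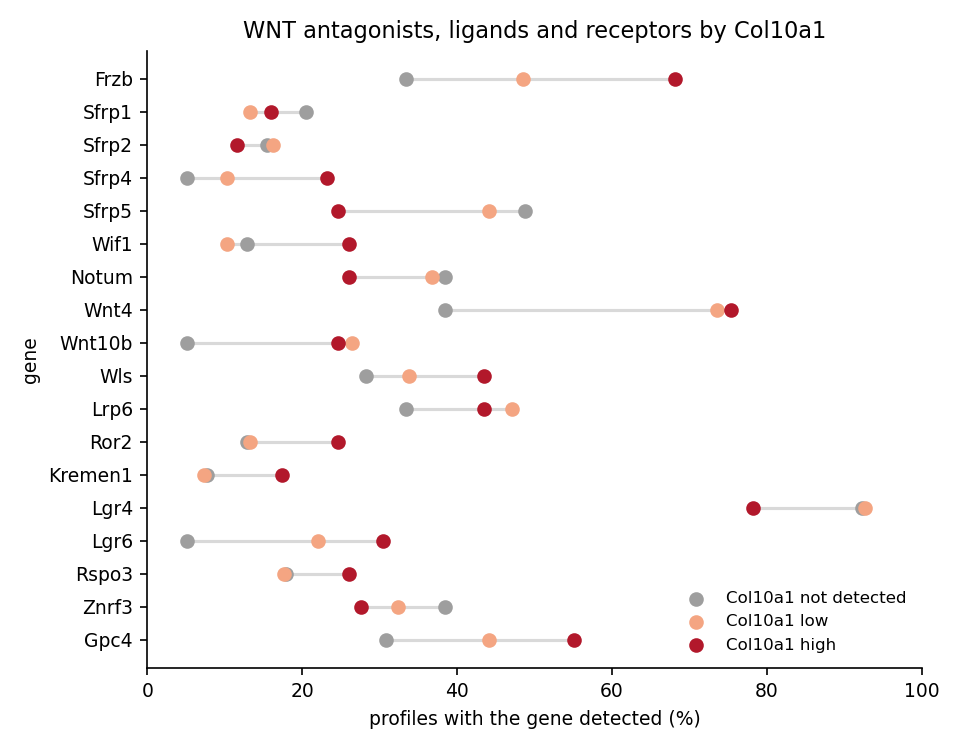
Percentage of profiles with each secreted WNT antagonist, ligand or receptor gene detected (x axis), in profiles with Col10a1 not detected (grey), low (orange) and high (red); genes shown are those detected in at least 10% of the chondrocyte profiles. Frzb goes from 33.3% to 68.1%, Wnt4 from 38.5% to 75.4%, and Sfrp5 from 48.7% to 24.6%.

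Known WNT target genes gave no common direction with either antagonist. Values were present for 14 of 27 listed targets. Of 9 targets detected in at least 20% of profiles, 1, Id2, was higher by at least 1 where Frzb was detected (1.89) and none was lower by that much. The median difference of the 9 was -0.09, beside a background of 4.29% of genes higher by at least 1, 0.521% lower and a median of 0.16. Id2, an inhibitor of basic helix-loop-helix factors that BMP signalling also induces, was also the 1 target higher by at least 1 where Sfrp5 was detected (1.11). The median of the 9 there was -0.11, beside 0.911% of genes higher by at least 1, 1.04% lower and a median of -0.02. Tcf7 was at -0.50 and 0.08, Ccnd1 at -0.44 and 0.82, Wisp1 at -0.05 and -0.56, and Cyr61 at 0.32 and -0.11 over Frzb and Sfrp5 detection in that order. Ctgf was at 0.37 and -0.62, Jun at -0.09 and -0.43, Notum at -0.13 and 0.30, and Znrf3 at -0.22 and -0.30. Axin2, the most used reporter of canonical WNT signalling, was detected in 2.84% of profiles, all 5 of them Col10a1-high, which is too few for a statement on either antagonist. Cd44 (12.5%), Runx2 (10.2%), Sox4 (7.39%) and Twist1 (6.25%) were below the 20% limit as well.

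Over Col10a1, 2 of the 25 other WNT genes detected in at least 20% of profiles were higher by at least 1, namely Wnt4 (1.78) and Ctgf (2.24), and none was lower by that much, beside the 9.89% and 1.49% of all genes given above. The count is near that background. The median of the 25 was 0.36, against 0.25 over all genes. Over Ucma none of the 25 differed by 1 or more in either direction, where the background of 1.13% higher and 0.781% lower gives little room for any, and their differences ran from -0.77 to 0.98. The list of intracellular signal carriers, which leaves out the targets, holds 8 of these genes, among them Gsk3b, the kinase that marks beta-catenin for destruction, and Dvl3, which relays the signal from Frizzled. Their differences over Col10a1 ran from -0.26 to 0.48.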

How the data were processed

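Values for 217 single cells were taken as the authors deposited them, on a log2 scale. Base 2 and a pseudocount of 1 were inferred from the values. The aligner TopHat and the build mm10 are named in the submitters' processing notes; the quantifier, annotation, unit and depth were not given in the sources used here. Columns with r above 0.95 to each other were averaged and 1 mixed column was dropped. No doublet caller was run. Shares, means, SDs, Spearman correlations and differences in mean were computed with SciPy 1.17.1, pandas 2.3.3, NumPy 2.4.6 and NetworkX 3.6.1 under Python 3.11.15 and plotted with matplotlib 3.10.9. The correlations and the search for near-identical columns were tested on simulated data, and the shares, intervals and SDs were not. Differences were computed for all genes detected in at least 20% of profiles. All cells are 1 sample, so no test was made. The members, gene lists and measures were chosen with earlier results of these data known. Genes named are Frzb, Sfrp5, the 10 highest and 5 lowest by rho with each, WNT antagonists, ligands and receptors detected in at least 10% of profiles (Igfbp4, Dkkl1 and the Frizzled genes fall below that and were named after their values were seen), all WNT targets with values, the reference genes Col10a1, Ucma, Acan, Ihh and Ibsp, and up to 4 examples of other lists. Of the genes most like Frzb, 1 is not reported here. List members without a row were not analysed here. Annotation came from GENCODE M21 and promoters from RefSeq GRCm38.p6. Alternatives covered the detection value, Acan threshold, repeats, mixed column, scaling, pseudocount, genes detected and the split over Col10a1 or Ucma.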

Additional observations from a re-analysis of the deposited data

How the results depend on the processing

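Of the values recomputed under other settings, 96 stayed within the spread used (the SD between repeat columns, the exact interval of a share, or 0.1 for a rho), 17 moved and 0 reversed. Some of the 96 could not move. An Acan threshold of 3 kept the same profiles, and the detection value does not enter the levels or the rho. The SD between repeat columns is not the error of a difference in means, and it was 0.23 for Frzb and 0.44 for Sfrp5. With a back-transformed value of at least 10 as detection, Frzb came to 40.9% and Sfrp5 to 27.3%. With a pseudocount of 0.1 the mean levels were 1.29 and -0.31, the differences over Col10a1 2.09 for Frzb and -1.46 for Sfrp5, and those over Ucma -1.43 and 1.38. Between the highest and lowest tertiles of the reference gene, the differences were 2.62 (Frzb) and -1.53 (Sfrp5) over Col10a1 and -1.45 (Frzb) over Ucma. With genes detected regressed out, Frzb over Col10a1 was 0.615. Without an Acan threshold, Frzb over Ucma was -0.78 and Sfrp5 over Col10a1 -0.51. Chosen after seeing the data, Col10a1-high against not detected gave 2.25 (Frzb) and -1.57 (Sfrp5), and within Ucma-detected profiles Frzb over Col10a1 was 0.98. Sfrp5 over Col10a1, -0.96 in the main setting, was -0.56 in Ucma-detected profiles and -0.67 without the profiles with fewest genes. Both were counted as staying within the wider spread of Sfrp5. Over these settings Frzb over Col10a1 ran from 0.615 to 2.62, Sfrp5 over Col10a1 from -1.57 to -0.51, Frzb over Ucma from -1.45 to -0.78, Sfrp5 over Ucma from 0.68 to 1.38, and the rho between Frzb and Sfrp5 from 0.0006 to 0.047. The median difference over all genes for Col10a1 was 0.25, and it went to 0.39 with upper-quartile scaling, 0.43 with a pseudocount of 0.1, -0.02 with genes detected regressed out and 0.16 without the profiles with fewest genes. Depth per cell is unknown and no animal is named, so that neither missed transcripts nor spread between animals could be measured.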

Other observations

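A list of BMP, hedgehog and FGF genes, which also act in growth plate maturation, had 10 members detected in at least 20% of chondrocyte profiles. Over Col10a1, 5 of the 10 were higher by at least 1 and 1 was lower, beside 9.89% and 1.49% of all genes, and their median difference was 0.96 against 0.25. Over Frzb detection 4 were higher and 1 lower, beside 4.29% and 0.521%, and over Sfrp5 detection 2 were higher and 2 lower, beside 0.911% and 1.04%. The list was drawn up with earlier results known, and it holds members near 0 as well. The 4 members furthest from 0 over Col10a1 are given. Bmp6 and Bmp2, both BMP ligands, had differences of 1.98 and 1.80, and Bmp6 had -1.19 over Sfrp5 detection. Chrdl1, a secreted BMP binder, had a difference of 1.63 over Col10a1 and -1.27 over Ucma, and it was higher by 2.08 where Frzb was detected and by 0.20 where Sfrp5 was. Spry2, an inhibitor of FGF receptor signalling, had a difference of -1.35 over Col10a1, -1.08 over Frzb detection and 1.05 over Sfrp5 detection.

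The mixed column that was left out of all profiles had Frzb at 4.63 and Sfrp5 at 3.39.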
